A study of Mus musculus with 2 samples.

Results

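Monocytes are blood cells that enter inflamed tissue or survey the inside of vessels, and mice have a Ly6c-high and a patrolling subset of them. The 9 genes described here mark these subsets. Ly6c2, Plac8, Ms4a6c, Ms4a4c and Chil3 are typical of Ly6c-high cells, Spn, Treml4 and Cd300e of patrolling cells, and S100a4 is expressed by both. They were taken by symbol from a deposited table of 33640 genes, and all 9 were found.

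The table compares the mitral valves of 2 genotypes of mice at 5 months of age: Fbn1C1039G/+, heterozygous for the C1039G missense allele of the fibrillin-1 gene and a model of Marfan syndrome, and WT. For each genotype 8 valves of male and female mice were pooled into 1 RNA sample, which was amplified and sequenced as 1 library. With 1 library per genotype there is no error on any value and no test, and each difference below is one between these libraries. Values are TPM, a transcript abundance that corrects for the length of each transcript and brings every library to one total, and they sum to 999945 in the Fbn1C1039G/+ pool and 999964 in the WT pool. TPM keeps no depth, which is unknown here. Fbn1 itself was at 126 TPM in the Fbn1C1039G/+ pool and 108 TPM in the WT pool, and a missense allele need not alter this level, so it does not check the labels.

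As background, Ly6c-high monocytes leave the bone marrow through the chemokine receptor Ccr2, enter inflamed tissue and can become macrophages or dendritic cells there. Patrolling monocytes derive from them under the transcription factor Nr4a1, carry the receptor Cx3cr1 and crawl along the endothelium. Few of these genes are exclusive to monocytes. Ly6c2, Plac8 and Spn are also expressed by lymphocytes, Chil3 by neutrophils and by macrophages of the lung airspace, and S100a4 by fibroblasts.

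All 5 Ly6c-high genes had more TPM in the Fbn1C1039G/+ pool. Of these, 4 were at least 2-fold higher, that is, by at least 1 on the log2(TPM + 1) scale, and the remaining one, Ly6c2, was 0.60 higher. Throughout, 2-fold is meant on this scale, on which a gene with a TPM ratio above 2 can fall short. Of the 3 patrolling genes only Treml4 was at least 2-fold higher. Over all 9 genes 5 were at least 2-fold higher and 0 lower by as much, 8 had more TPM and 1, Cd300e, had less. Across the 17004 genes that averaged 1 TPM or more, 4.81% were at least 2-fold higher, 1.72% were lower by as much, and 64.9% had more TPM in the Fbn1C1039G/+ pool. The median difference was 1.08 over the 9 genes and 0.14 over the 17004 genes. An average of 1 TPM or more was reached by 8 of the 9 genes, and the one below it was Cd300e. A gene near this limit passes it more easily when 1 pool is high, so the counts are given over all 9. Over all 33640 genes, without this limit, 2.98% were at least 2-fold higher and 1.25% lower by as much. Of these genes 12222 were listed at 0 in the Fbn1C1039G/+ pool and 12542 in the WT pool.

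**Figure D1:**
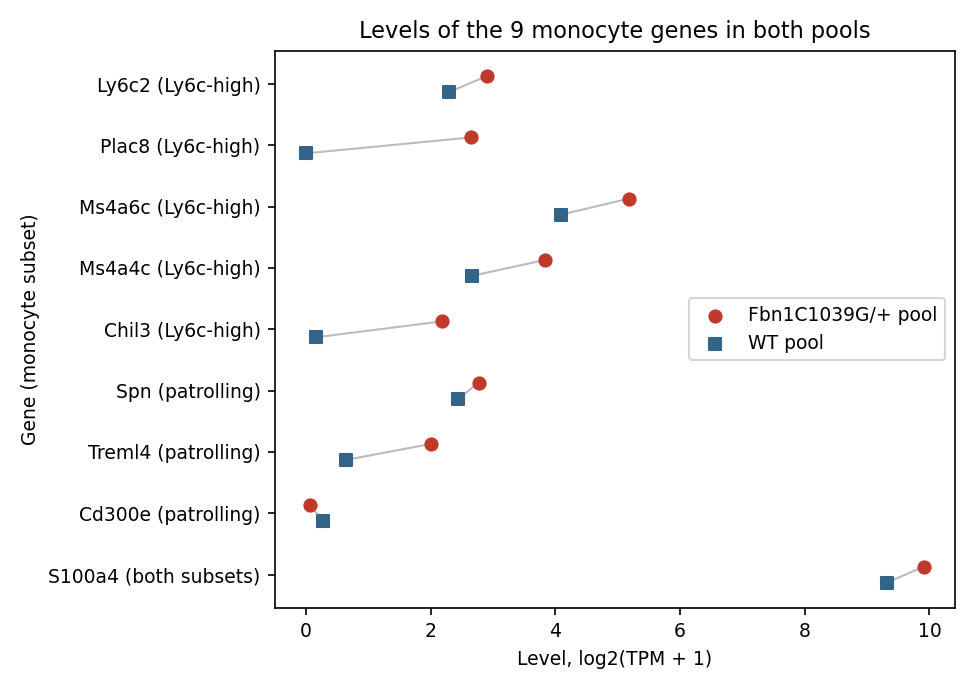
Level of each of the 9 monocyte genes as log2(TPM + 1) on the horizontal axis, 1 row per gene, with a circle for the Fbn1C1039G/+ pool and a square for the WT pool. The circle lies to the right of the square for 8 genes and to the left for Cd300e, and S100a4 lies far to the right of the rest.

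Ly6c2 encodes the small surface antigen Ly-6C for which the subset is named. It was at 6.46 TPM in the Fbn1C1039G/+ pool and 3.91 TPM in the WT pool, a difference of 0.60. It lies on chromosome 15 (75108158 to 75111970, minus strand, mm10, ENSMUSG00000022584.14) as does Ly6c1, a near copy that endothelial cells express. Their coding sequences are each 396 bases long and differ at 9 bases, an identity of 97.7%. The stretch with the most of these differences, bases 6 to 65 of the coding sequence, is shown because the copies are least alike there. Capitals mark the 6 differing bases, and the sequences are from GENCODE release M21.
Ly6c2: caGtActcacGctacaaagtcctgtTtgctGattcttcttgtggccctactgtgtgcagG
Ly6c1: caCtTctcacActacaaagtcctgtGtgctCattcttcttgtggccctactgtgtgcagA
Of the 2714 words of 31 bases in Ly6c2 transcripts, 645 (23.8%) also occur in transcripts of other genes, 581 of them in those of Ly6c1. Ly6c1 was far more abundant, at 67.9 TPM in the Fbn1C1039G/+ pool and 39.9 TPM in the WT pool, a difference of 0.75. The division of reads between the copies is therefore an estimate, and the sum of both was also higher in the Fbn1C1039G/+ pool.

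Ms4a6c and Ms4a4c encode membrane proteins with 4 spans of the MS4A family and lie close together on chromosome 19. Ms4a6c (11469366 to 11482192, plus strand, ENSMUSG00000079419.4) was at 35.1 TPM in the Fbn1C1039G/+ pool and 16.02 TPM in the WT pool, a ratio of 2.19. Its difference of 1.08 compares with a share of 1.55% at least 2-fold higher and 0.383% lower by as much among the 5737 genes averaging 20 to 100 TPM. When differences were centred on the median gene it was 0.97, just under the 2-fold limit. Ms4a4c (11404770 to 11427246, plus strand, ENSMUSG00000024675.19) was at 13.2 TPM in the Fbn1C1039G/+ pool and 5.30 TPM in the WT pool, a ratio of 2.50 and a difference of 1.18. In its range, an average from 5 to 20 TPM, 4.75% of 5453 genes were at least 2-fold higher and 1.32% lower by as much. Both were the most abundant genes after S100a4 in the Fbn1C1039G/+ pool, as in the WT pool.

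Plac8, Chil3 and Treml4 had the largest differences, and each rests on low TPM. Plac8, a small cysteine-rich protein of myeloid cells, was at 5.29 TPM in the Fbn1C1039G/+ pool and listed at 0 in the WT pool. Its difference was 2.65, and no ratio is given against a value of 0. Chil3, the secreted chitinase-like protein Ym1, was at 3.56 TPM in the Fbn1C1039G/+ pool and 0.121 TPM in the WT pool, a difference of 2.02. Treml4, a receptor of the TREM family found on patrolling monocytes and some macrophages and dendritic cells, was at 3.01 TPM in the Fbn1C1039G/+ pool and 0.562 TPM in the WT pool, a difference of 1.36. Among the 4424 genes averaging 1 to 5 TPM, where these genes lie, 10.4% were at least 2-fold higher and 4.29% lower by as much. All 3 were below 1 TPM in the WT pool and reach this range only through the Fbn1C1039G/+ pool, so nothing is read from these shares. Plac8 lies on chromosome 5 (100553725 to 100572245, minus strand, ENSMUSG00000029322.12), Chil3 on chromosome 3 (106147554 to 106167564, minus strand, ENSMUSG00000040809.10) and Treml4 on chromosome 17 (48264295 to 48275360, plus strand, ENSMUSG00000051682.15).

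Spn and Cd300e, the other patrolling genes, differed little. Spn encodes the sialoglycoprotein CD43, which is high on patrolling monocytes and on T cells. It was at 5.83 TPM in the Fbn1C1039G/+ pool and 4.45 TPM in the WT pool, a difference of 0.33. Cd300e encodes an activating immunoglobulin-like receptor of monocytes. It was at 0.0494 TPM in the Fbn1C1039G/+ pool and 0.209 TPM in the WT pool, too low in both to read a direction from. Spn lies on chromosome 7 (127132232 to 127137823, minus strand, ENSMUSG00000051457.7) and Cd300e on chromosome 11 (115051917 to 115062177, minus strand, ENSMUSG00000048498.7).

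S100a4, a small calcium-binding protein, was at 962 TPM in the Fbn1C1039G/+ pool and 640.0 TPM in the WT pool, a ratio of 1.502 and a difference of 0.59. Among the 1390 genes averaging 100 TPM or more, 0.863% were at least 2-fold higher and 0.647% lower by as much. It made up 93.0% of the summed TPM of the 9 genes in the Fbn1C1039G/+ pool and 95.4% in the WT pool. Without it the other 8 genes summed to 72.5 TPM in the Fbn1C1039G/+ pool and 30.6 TPM in the WT pool, a ratio of 2.37. The fibroblast and interstitial cell list of 8 genes, from Col1a1 to Vim, summed to 17462 TPM in the Fbn1C1039G/+ pool and 18179.8 TPM in the WT pool, with 0 of 8 at least 2-fold different. In single genes 6 of the 8 had more TPM in the Fbn1C1039G/+ pool, with a median difference of 0.21, and the lower sum rests on Dcn, at 9304 TPM in the Fbn1C1039G/+ pool and 11409 TPM in the WT pool. The other 7 genes, a sum taken after the values were seen, came to 8158 TPM in the Fbn1C1039G/+ pool and 6771 TPM in the WT pool. The part of these cells in the level of S100a4 was not tested. The gene lies on chromosome 3 (90603771 to 90606045, plus strand, ENSMUSG00000001020.8).

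**Figure D2:**
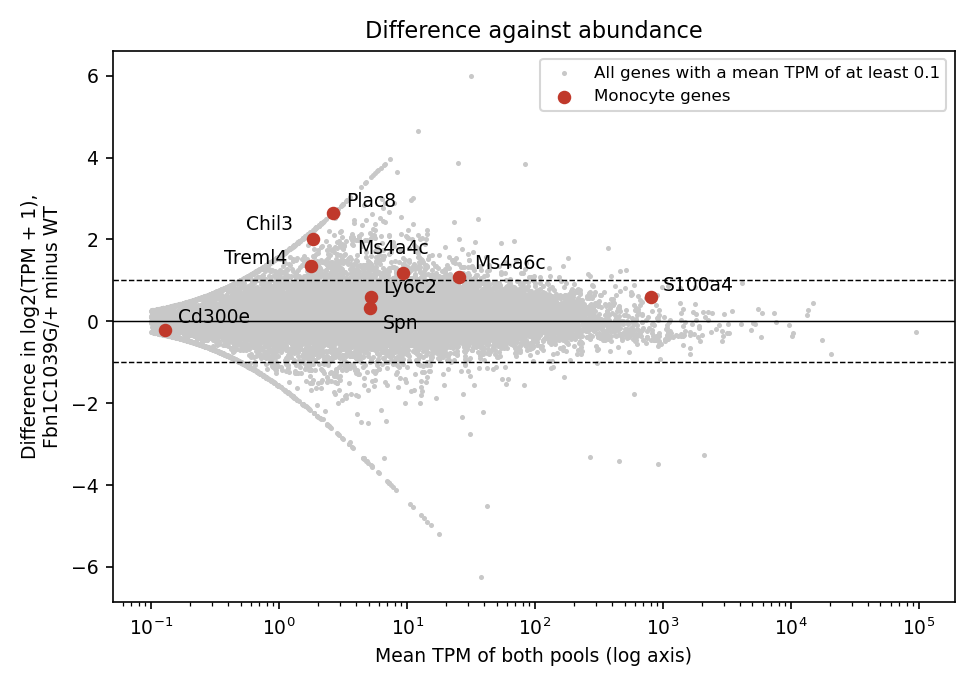
Difference in log2(TPM + 1), Fbn1C1039G/+ minus WT, against the mean TPM of both pools on a log axis, with all genes in grey and the 9 monocyte genes in red. Dashed lines mark differences of 1 and −1, and Plac8, Chil3, Treml4, Ms4a4c and Ms4a6c lie above the upper one, the first 3 of them where the grey points spread widest. The outer curves of grey points are genes listed at or near 0 in 1 pool.

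The order of levels was similar in both pools, with S100a4 first, Ms4a6c next, then Ms4a4c. In the Fbn1C1039G/+ pool Ly6c2, Spn and Plac8 followed within 6.46 to 5.29 TPM, and Chil3, Treml4 and Cd300e were last. In the WT pool Spn (4.45 TPM) and Ly6c2 (3.91 TPM) came next, and Treml4, Cd300e, Chil3 and Plac8 were all below 0.6 TPM. With 1 library each, neighbours in these orders cannot be told apart by any measured spread. The 5 genes nearest to Ms4a6c in the plane of both levels, by distance in log2(TPM + 1) over the 2 libraries, were Selenov, Lepr, Eml6, Pde5a and Dhx35, at 33.0 to 36.9 TPM in the Fbn1C1039G/+ pool and 14.9 to 17.0 TPM in the WT pool.

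The sequence before the start of each of the 5 genes that were at least 2-fold higher is shown, because these genes differed in the same direction. Each run is the 250 bases before a RefSeq start (build GRCm38.p6, the same assembly as mm10), read 5′ to 3′ on the gene's own strand. They are chr5:100572206-100572455 (minus) for Plac8, chr3:106167565-106167814 (minus) for Chil3, chr17:48264045-48264294 (plus) for Treml4, chr19:11407411-11407660 (plus) for Ms4a4c and chr19:11469118-11469367 (plus) for Ms4a6c. Capitals mark GAGGAA on either strand, a core of sites for PU.1, the transcription factor that myeloid cells require.
Plac8: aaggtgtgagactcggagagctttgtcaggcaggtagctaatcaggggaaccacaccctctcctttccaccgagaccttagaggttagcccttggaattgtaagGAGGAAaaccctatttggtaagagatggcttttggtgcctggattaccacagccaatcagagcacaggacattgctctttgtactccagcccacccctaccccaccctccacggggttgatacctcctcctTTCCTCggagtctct
Chil3: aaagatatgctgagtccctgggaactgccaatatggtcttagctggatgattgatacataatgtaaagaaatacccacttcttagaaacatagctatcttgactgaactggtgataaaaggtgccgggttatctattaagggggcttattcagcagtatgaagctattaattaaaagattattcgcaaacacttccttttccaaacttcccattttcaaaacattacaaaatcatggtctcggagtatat
Treml4: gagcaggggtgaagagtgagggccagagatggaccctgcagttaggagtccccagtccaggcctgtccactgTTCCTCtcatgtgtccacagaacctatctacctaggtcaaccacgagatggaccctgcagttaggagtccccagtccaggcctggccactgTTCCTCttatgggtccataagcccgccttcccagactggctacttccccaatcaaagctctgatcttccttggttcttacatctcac
Ms4a4c: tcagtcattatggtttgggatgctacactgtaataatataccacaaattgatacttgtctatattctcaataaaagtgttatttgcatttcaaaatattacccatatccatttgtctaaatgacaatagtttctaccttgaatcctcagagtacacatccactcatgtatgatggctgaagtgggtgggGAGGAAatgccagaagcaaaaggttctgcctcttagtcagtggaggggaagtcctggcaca
Ms4a6c: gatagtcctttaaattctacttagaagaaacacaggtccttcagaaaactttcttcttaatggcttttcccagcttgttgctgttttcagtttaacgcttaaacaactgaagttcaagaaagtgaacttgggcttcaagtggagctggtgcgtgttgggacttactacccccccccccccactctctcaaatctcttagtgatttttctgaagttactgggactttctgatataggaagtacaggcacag
Plac8 held 2 matches, with first bases 146 and 15 bases before the start, Treml4 held 2, at 178 and 87 bases, and Ms4a4c held 1, at 61 bases. Chil3 and Ms4a6c held none. In all 4 of the 9 genes had a match, Ly6c2 being the fourth, and 23.3% of all 32851 RefSeq windows of this length had one. Both matches in Treml4 closely follow a run of 40 bases that occurs more than once in its window. The letters TTGCNNAA of C/EBP (9.56% of all windows) and AAAGGTCA of NR4A1 (1.34%) were in none of the 9 windows. A match is a description of these letters and not a site, and windows without one say nothing of the factor. The RefSeq start of Ms4a4c used here lies 2891 bases inside the gene as GENCODE annotates it. That of Plac8 lies 40 bases inside its gene, so the Plac8 match at 15 bases falls within the annotated gene.

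Reads of several members can be shared with other genes, which bears on how far each value is its own. Plac8, Treml4 and Cd300e shared 0 of their 31-base words with any other gene, and Spn shared 0.430%. Ms4a4c shared 17.1%, most of them with Ms4a4b. Chil3 shared 41.5%, most with its paralog Chil4, which was listed at 0 in both pools. S100a4 shared 49.2%, all with the overlapping transcript Gm42674, also listed at 0 in both pools. Ms4a6c shared 58.1%, most with BE692007, a noncoding transcript on the opposite strand that overlaps it and was not analysed here. The sources used here do not give whether counting used strand.

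Several neighbours of Ms4a6c and Ms4a4c on chromosome 19 had more TPM in the Fbn1C1039G/+ pool too. Of 18 genes of the family in the table, 4 were at least 2-fold higher and 0 lower by as much, against 2.98% and 1.25% of all 33640 rows. The 4 include the members Ms4a4c and Ms4a6c themselves, so of the neighbours only Ms4a4a and Ms4a6b were at least 2-fold higher. Ms4a4a, expressed by macrophages, was at 19.7 TPM in the Fbn1C1039G/+ pool and 6.35 TPM in the WT pool. Ms4a6b was at 57.9 TPM in the Fbn1C1039G/+ pool and 25.9 TPM in the WT pool. Ms4a4b, best known from T cells, was at 8.15 TPM in the Fbn1C1039G/+ pool and 3.80 TPM in the WT pool, and Ms4a6d was at 45.7 TPM in the Fbn1C1039G/+ pool and 23.1 TPM in the WT pool. Ms4a4d lies between Ms4a6b and Ms4a6d and was at 23.2 TPM in the Fbn1C1039G/+ pool and 18.8 TPM in the WT pool. Ms4a7, a gene of mature macrophages, was at 58.2 TPM in the Fbn1C1039G/+ pool and 61.5 TPM in the WT pool. The 4 genes at least 2-fold higher were thus Ms4a4a, Ms4a4c, Ms4a6c and Ms4a6b. They were 3 when differences were centred on the median gene and 2 under quantile normalization, and Ms4a4a and Ms4a4c passed under every scaling tried. Ms4a14 was at 8.23 TPM in the Fbn1C1039G/+ pool and 5.29 TPM in the WT pool. The B cell gene Ms4a1, the mast cell gene Ms4a2, the myeloid precursor gene Ms4a3, Ms4a5 and Ms4a8a were between 1.22 and 3.03 TPM in the Fbn1C1039G/+ pool and between 0.431 and 2.27 TPM in the WT pool.

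**Figure D3:**
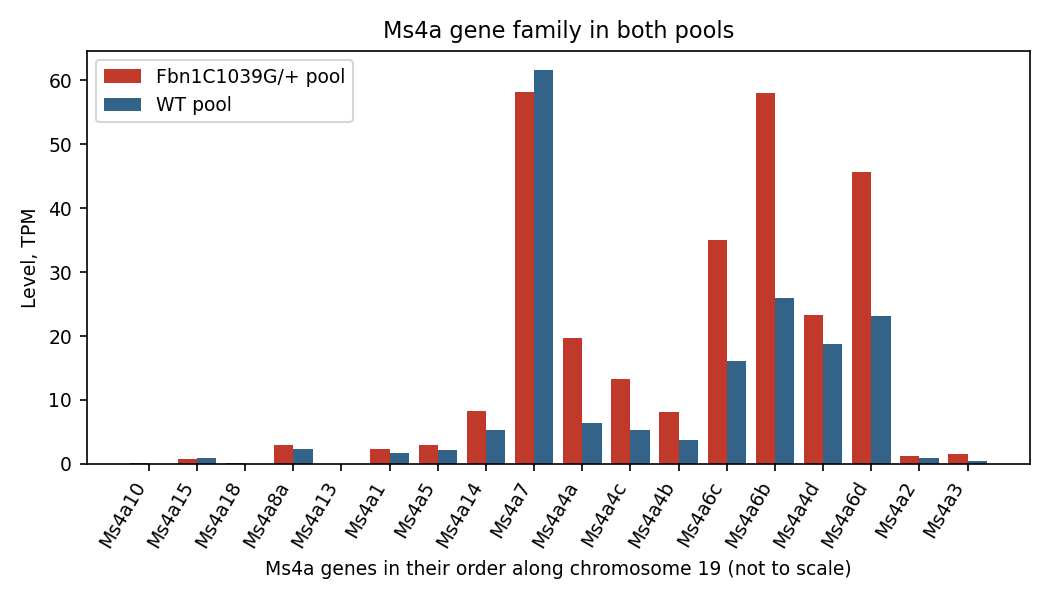
Level in TPM of 18 Ms4a genes in their order along chromosome 19, with the Fbn1C1039G/+ pool as the left bar and the WT pool as the right bar of each pair. Ms4a4a, Ms4a4c, Ms4a4b, Ms4a6c, Ms4a6b and Ms4a6d have left bars well above their right bars, whereas Ms4a7 is at 58.2 TPM in the Fbn1C1039G/+ pool and 61.5 TPM in the WT pool.

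Of 25 further genes of Ly6c-high monocytes, 8 were at least 2-fold higher in the Fbn1C1039G/+ pool and 0 lower by as much, against 4.81% and 1.72% of the 17004 genes averaging 1 TPM or more. That average was reached by 24 of the 25. Centred on the median gene, 6 of the 25 were at least 2-fold higher, and 5 were so under quantile normalization. Their median difference was 0.48, and 23 had more TPM in the Fbn1C1039G/+ pool. Ccr2, the receptor by which these cells leave the marrow, was at 35.0 TPM in the Fbn1C1039G/+ pool and 11.8 TPM in the WT pool. The C-type lectin receptor gene Clec4d was at 14.2 TPM in the Fbn1C1039G/+ pool and 3.47 TPM in the WT pool. The related gene Clec4e, which encodes the receptor Mincle, was at 4.20 TPM in the Fbn1C1039G/+ pool and 1.18 TPM in the WT pool. The inhibitory lectin gene Clec12a was at 16.8 TPM in the Fbn1C1039G/+ pool and 7.64 TPM in the WT pool. Sirpb1c, of the SIRP receptor family, was at 8.11 TPM in the Fbn1C1039G/+ pool and 1.28 TPM in the WT pool. Gda, guanine deaminase, was at 30.4 TPM in the Fbn1C1039G/+ pool and 13.7 TPM in the WT pool. Hp, haptoglobin, was at 3.37 TPM in the Fbn1C1039G/+ pool and listed at 0 in the WT pool. The most abundant genes of this list differed less. Lyz2, lysozyme, was at 1587 TPM in the Fbn1C1039G/+ pool and 1288 TPM in the WT pool, and Vcan, which encodes the matrix proteoglycan versican, was at 688 TPM in the Fbn1C1039G/+ pool and 443 TPM in the WT pool. The lipopolysaccharide co-receptor gene Cd14 was at 14.4 TPM in the Fbn1C1039G/+ pool and 11.7 TPM in the WT pool.

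Of 24 further genes of patrolling monocytes, 3 were at least 2-fold higher in the Fbn1C1039G/+ pool and 0 lower by as much, against the same 4.81% and 1.72%, and all 24 averaged 1 TPM or more. When differences were centred on the median gene, 1 of the 24 was at least 2-fold higher, against 3.88% of the 17004 genes. Under quantile normalization it was 0, against 3.17% of genes averaging 1 TPM or more. With abundant and predicted genes left out it was 3, against 3.28%. The count thus depended on the scaling, and with centring it was near the background. As deposited, the median difference was 0.30, with 16 of the 24 above 0. Nr4a1, Cx3cr1 and Itgal, genes of the subset named here after their values were seen, were not among the higher ones. Pou2f2, at 5.41 TPM in the Fbn1C1039G/+ pool and 2.32 TPM in the WT pool, fell just short with a difference of 0.95, though its TPM ratio was 2.33. Nr4a1 was at 20.8 TPM in the Fbn1C1039G/+ pool and 35.0 TPM in the WT pool, a difference of −0.72, and it is also an immediate early gene of many cells. Cx3cr1, the fractalkine receptor, which resident macrophages share, was at 17.5 TPM in the Fbn1C1039G/+ pool and 17.7 TPM in the WT pool. The integrin gene Itgal, which these cells use to crawl, was at 5.75 TPM in the Fbn1C1039G/+ pool and 6.84 TPM in the WT pool. The 3 higher genes were Itgax, Ear2 and Fcgr4. Itgax, the integrin CD11c, was at 11.2 TPM in the Fbn1C1039G/+ pool and 4.92 TPM in the WT pool. Ear2, a ribonuclease with near copies in the genome, was at 12.6 TPM in the Fbn1C1039G/+ pool and 5.24 TPM in the WT pool, and the Fc receptor gene Fcgr4 was at 5.28 TPM in the Fbn1C1039G/+ pool and 1.97 TPM in the WT pool. None of these 3 stayed at least 2-fold higher under quantile normalization. The most abundant genes of the list were Adgre5, at 235 TPM in the Fbn1C1039G/+ pool and 199 TPM in the WT pool, and Ace, at 227 TPM in the Fbn1C1039G/+ pool and 142 TPM in the WT pool. The difference between the Ly6c-high and the patrolling lists was not tested.

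Genes of monocyte precursors and of homing complete the lineage. The list of precursor and granule genes had 0 of 9 at least 2-fold different in either direction. The granule enzyme genes Elane, Prtn3, Ctsg and Mpo were between 0 and 1.19 TPM in the Fbn1C1039G/+ pool and between 0 and 1.01 TPM in the WT pool. Spi1, which encodes PU.1, was at 47.3 TPM in the Fbn1C1039G/+ pool and 25.1 TPM in the WT pool, and the monocyte transcription factor gene Irf8 was at 16.9 TPM in the Fbn1C1039G/+ pool and 11.4 TPM in the WT pool. Of 11 adhesion and homing genes, 2 were at least 2-fold higher, Ccr2 among them, against 4.81% of the 17004 genes averaging 1 TPM or more. All 11 reached that average. The integrin gene Itgam, CD11b, was at 40.1 TPM in the Fbn1C1039G/+ pool and 21.2 TPM in the WT pool. The most abundant of these genes were Cd44, at 354 TPM in the Fbn1C1039G/+ pool and 226 TPM in the WT pool, and Itgb1, at 199.8 TPM in the Fbn1C1039G/+ pool and 173 TPM in the WT pool.

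Marker lists of other blood and immune cells follow. Those of neutrophils, T cells and red blood cells had several genes at least 2-fold different, and the other lists here had 1 or 0. In tissue RNA, fewer cells of a type and less RNA per cell cannot be told apart. Of 14 neutrophil genes 7 were at least 2-fold higher in the Fbn1C1039G/+ pool, against 2.98% of all 33640 genes. The list summed to 269 TPM in the Fbn1C1039G/+ pool and to 28.7 TPM in the WT pool. Lcn2 was its most abundant gene, at 156 TPM in the Fbn1C1039G/+ pool and 9.95 TPM in the WT pool, and S100a9 was at 48.0 TPM in the Fbn1C1039G/+ pool and 2.34 TPM in the WT pool. S100a8, Cxcr2, Csf3r, Stfa2l1 and, with a mean below 1 TPM, Mmp9 were the others. Lcn2 and S100a9 made up most of the sum. The defining gene Ly6g was listed at 0 in both pools, and 3 genes had less TPM in the Fbn1C1039G/+ pool. These were Camp, at 0.949 TPM in the Fbn1C1039G/+ pool and 1.49 TPM in the WT pool, Retnlg, at 1.13 TPM in the Fbn1C1039G/+ pool and 1.21 TPM in the WT pool, and Ltf, listed at 0 in the Fbn1C1039G/+ pool and at 0.671 TPM in the WT pool. The 18 T cell genes summed to 131 TPM in the Fbn1C1039G/+ pool and 228 TPM in the WT pool. Of them 7 were at least 2-fold lower, against 1.25% of all 33640 genes. These were Cd3e, Cd3g, Trbc2, Cd8a, Cd8b1, Lck and Tcf7, while Cd3d was at 26.9 TPM in the Fbn1C1039G/+ pool and 19.7 TPM in the WT pool. The 5 red blood cell genes summed to 687 TPM in the Fbn1C1039G/+ pool and 6801 TPM in the WT pool, with all 4 globin genes at least 2-fold lower. The remaining gene, Alas2, was at 23.3 TPM in the Fbn1C1039G/+ pool and 27.6 TPM in the WT pool, a difference of −0.23. B cell genes summed to 84.3 TPM in the Fbn1C1039G/+ pool and 104 TPM in the WT pool, with 0 of 10 at least 2-fold different on the log2(TPM + 1) scale. At low TPM some had larger TPM ratios in either direction, such as Cd79a (0.213) and Cd79b (2.22). Natural killer cell genes summed to 19.8 TPM in the Fbn1C1039G/+ pool and 12.0 TPM in the WT pool. Klrd1 was the one of 9 that was at least 2-fold higher, against 2.98% of all 33640 genes, and Ncr1 was listed at 0 in both. Genes of plasmacytoid dendritic cells summed to 541 TPM in the Fbn1C1039G/+ pool and 526 TPM in the WT pool, with 0 of 10 at least 2-fold different. Of 7 genes of lung airspace macrophages 0 were at least 2-fold different. They summed to 6.49 TPM in the Fbn1C1039G/+ pool and 8.37 TPM in the WT pool, with Ear1 and Fabp1 listed at 0 in both. Eosinophil genes summed to 5.53 TPM in the Fbn1C1039G/+ pool and 3.28 TPM in the WT pool, with 0 of 7 at least 2-fold different and Ear1 and Ear6 listed at 0 in both. The part of these cells in the differences of the 9 genes was not tested.

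Macrophage genes, which monocytes can come to express, had smaller differences here, though the lists were not tested against each other. Of 12 general macrophage genes 0 were at least 2-fold different, with a median of 0.19. Csf1r, the growth factor receptor of the lineage, was at 83.8 TPM in the Fbn1C1039G/+ pool and 83.3 TPM in the WT pool. The most abundant of them were Fcer1g, at 354 TPM in the Fbn1C1039G/+ pool and 265 TPM in the WT pool, and C1qb, at 308 TPM in the Fbn1C1039G/+ pool and 280.2 TPM in the WT pool. Of 10 genes of resident-type macrophages 0 were at least 2-fold different, with a median of 0.16. Gas6 was at 263 TPM in the Fbn1C1039G/+ pool and 309.8 TPM in the WT pool, and Pf4 at 213 TPM in the Fbn1C1039G/+ pool and 153 TPM in the WT pool. Of 12 interferon-stimulated genes 5 were at least 2-fold higher, against 4.81% of the 17004 genes averaging 1 TPM or more. All 12 reached that average, and the 5 were Cxcl10, Isg15, Usp18, Mx1 and Ifit1. All 12 had more TPM in the Fbn1C1039G/+ pool, as had 64.9% of those 17004 genes. The median over the 12 was 0.92, and under the other scalings 4 of them were at least 2-fold higher. Oasl2 was the most abundant, at 150.2 TPM in the Fbn1C1039G/+ pool and 82.4 TPM in the WT pool. The part of interferon in the differences of the 9 genes was not tested. Of 8 endothelial genes, which include Ly6c1, 0 were at least 2-fold different.

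**Figure D4:**
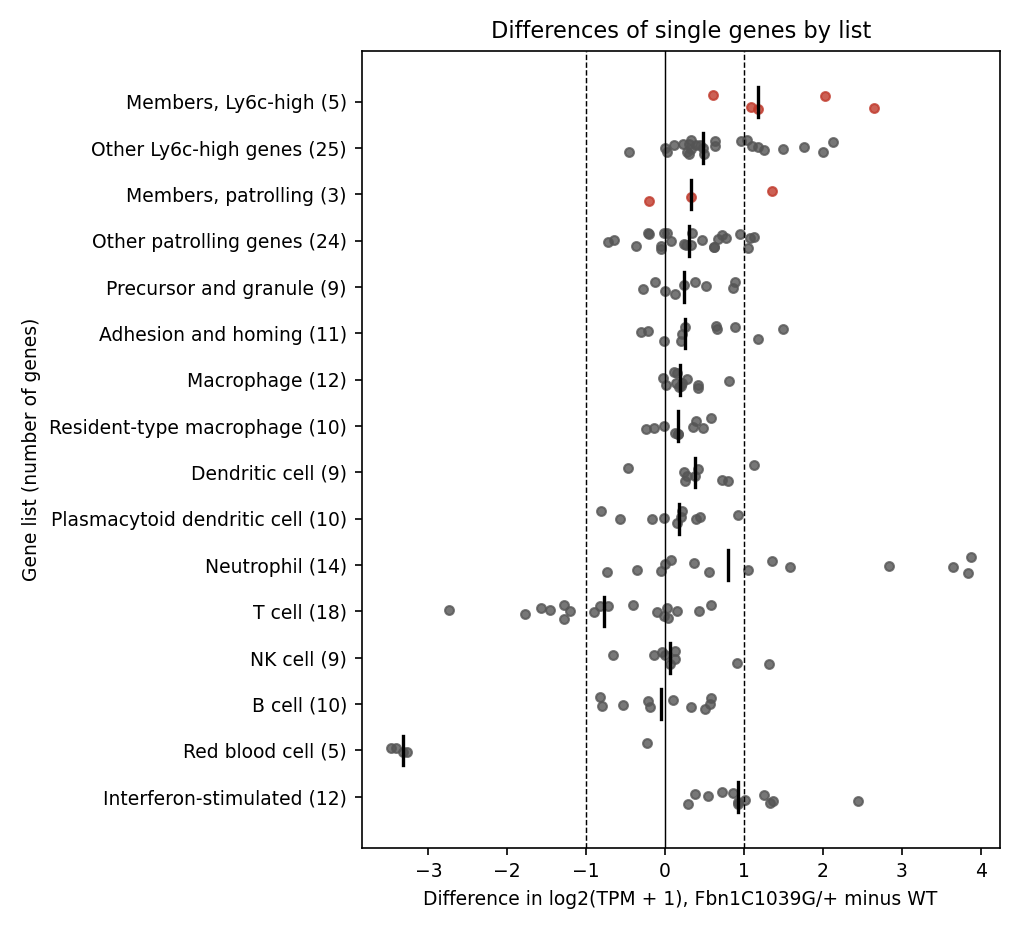
Difference in log2(TPM + 1), Fbn1C1039G/+ minus WT, of each gene in 16 lists, 1 row per list with the number of genes in brackets, the members in red and a black bar at each list's median. Dashed lines mark 1 and −1. The Ly6c-high members (median 1.18) lie furthest right of the monocyte and macrophage rows, and the red blood cell row (median −3.32) lies furthest left.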

How the data were processed

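The authors deposited 1 table of TPM values for gene symbols, 1 column per genotype, per the file headers. RNA of 8 valves per genotype was pooled, amplified with the Ovation RNAseq system v2 and made into libraries with the Nextera XT kit, per the labels' protocols. Trimmomatic, HISAT2, kallisto and mm10 are named in the submitters' processing notes. The sources used here give no versions, roles or annotation. Amplified reads without molecular identifiers are not independent molecules, so low TPM can rest on few of them.

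The difference was log2(TPM + 1), Fbn1C1039G/+ minus WT, with a pseudocount of 1, which understates differences of low genes. No filter was set on members, and an average of 1 TPM or more on the table. A difference of at least 1 in size counted as at least 2-fold, so a gene of low TPM can have a TPM ratio above 2 and fall short. No test was possible with 1 library per genotype. The calculation (Python 3.11.15, pandas 2.3.3) was run on simulated data without noise. This checks its arithmetic only, and not values of low genes or spread between libraries. The 9 members and the 27 lists were chosen with earlier results of these data known. Genes named are all members, each list's genes at least 2-fold different and its 2 most abundant, family genes averaging 1 TPM or more, and Fbn1, and a few genes that this takes in are not reported. Further names, such as Nr4a1, Cx3cr1, Itgal, Cd14, Csf1r, Spi1, Irf8 and Itgam, were chosen after their values were seen. In the lists of other cell types, counts and sums stand for most genes. Loci and transcripts are from GENCODE M21 and promoters from RefSeq.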

Additional observations from a re-analysis of the deposited data

How the results depend on the processing

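Every one of the 9 genes kept its direction under the alternatives in which it was computed. These were a pseudocount of 0.1 or 5, centring on the median, quantile normalization, leaving out abundant and predicted genes, no filter or an average of 5 TPM or more, and summing close paralogs. The count of genes at least 2-fold higher depended on the pseudocount, since most are low, and on the scaling. Centring and quantile normalization each left 4 of the 9 at least 2-fold higher, 3 of them Ly6c-high. Ms4a6c was then just below the limit. With a pseudocount of 5, 1 of the 9 (Plac8) was at least 2-fold higher, so 1 Ly6c-high and 0 patrolling genes. The differences were then 0.74 for Chil3, 0.82 for Ms4a4c, 0.93 for Ms4a6c and 0.53 for Treml4, and the medians 0.58 over the 9 and 0.82 over the Ly6c-high genes. Of the further genes 3 Ly6c-high and 0 patrolling ones were at least 2-fold higher, and over all genes 209 were higher and 87 lower. With a pseudocount of 0.1 the difference of Cd300e was −1.05, which made 1 of the 9 and 1 patrolling gene at least 2-fold lower. Of the further genes 8 Ly6c-high and 4 patrolling ones were then at least 2-fold higher. Over all genes 1264 were higher and 464 lower. The main counts were 818 and 293. With an average of 5 TPM or more, 5 of the 9 genes were left, with a median of 0.60, and 2 of them, both Ly6c-high (Ms4a6c and Ms4a4c), were at least 2-fold higher, with 0 patrolling, 5 further Ly6c-high genes, and 360 genes higher and 103 lower across the table. Centring gave a median of 0.97 over the 9, the value of Ms4a6c, and 1 further patrolling gene. Quantile normalization gave 0.93 for both, 5 further Ly6c-high and 0 further patrolling genes, and 540 higher and 462 lower across the table, a share of 53.9% higher against 73.6%, and centring gave 64.4%. Leaving out abundant and predicted genes gave 499 higher across the table, and 64.2% of all called genes were higher. The median difference of genes averaging 10 TPM or more was 0.11 as deposited. Depth is unknown, so no limit of detection is given. No paired analysis was possible because each genotype has 1 library.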

Other observations

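Relatives of the members in their gene families differed in single genes. Over all 33640 genes 2.98% were at least 2-fold higher and 1.25% lower by as much. Of 8 CD300 receptor genes in the table Cd300lf alone was at least 2-fold higher, at 10.3 TPM in the Fbn1C1039G/+ pool and 2.75 TPM in the WT pool. It encodes an inhibitory receptor of myeloid cells. Cd300ld was at 34.3 TPM in the Fbn1C1039G/+ pool and 32.8 TPM in the WT pool, Cd300c2 at 31.7 TPM in the Fbn1C1039G/+ pool and 19.98 TPM in the WT pool, and Cd300a at 18.2 TPM in the Fbn1C1039G/+ pool and 13.1 TPM in the WT pool. The differences of Cd300lg, Cd300lb and Cd300c ran from −0.31 to 0.37. Of 6 TREM genes Treml4 alone was at least 2-fold higher. Trem2, a macrophage receptor, was at 7.30 TPM in the Fbn1C1039G/+ pool and 7.99 TPM in the WT pool, and Treml2 at 1.45 TPM in the Fbn1C1039G/+ pool and 0.851 TPM in the WT pool. Of 7 chitinase-like genes Chil3 and Chil1 were at least 2-fold higher, and Chil1 was at 42.0 TPM in the Fbn1C1039G/+ pool and 18.04 TPM in the WT pool. Chil5 was at 22.1 TPM in the Fbn1C1039G/+ pool and 25.9 TPM in the WT pool.

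Among 12 S100a genes, S100a8 and S100a9 were at least 2-fold higher and S100a5 at least 2-fold lower, against 2.98% and 1.25% of all 33640 genes. S100a5 was at 0.544 TPM in the Fbn1C1039G/+ pool and 2.36 TPM in the WT pool. S100a6, next to S100a4 in level, was at 1142 TPM in the Fbn1C1039G/+ pool and 1116 TPM in the WT pool, and S100a11 was at 1849 TPM in the Fbn1C1039G/+ pool and 1579 TPM in the WT pool. The differences of S100a1, S100a3, S100a10, S100a13 and S100a16 ran from −0.27 to 0.50. Of 10 Ly6 genes 0 were at least 2-fold different. Ly6a, also called Sca-1, was at 766 TPM in the Fbn1C1039G/+ pool and 502 TPM in the WT pool, and Ly6e was at 689 TPM in the Fbn1C1039G/+ pool and 691 TPM in the WT pool. The differences of Ly6d, Ly6h, Ly6i and Ly6k ran from −0.33 to 0.63. Of 9 dendritic cell genes Cd209a, a lectin of monocyte-derived dendritic cells, was at least 2-fold higher, at 21.8 TPM in the Fbn1C1039G/+ pool and 9.45 TPM in the WT pool, but not under quantile normalization. Zbtb46, a transcription factor of conventional dendritic cells, was at 19.9 TPM in the Fbn1C1039G/+ pool and 16.7 TPM in the WT pool.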
